A study of Mus musculus with 12 samples.

Results

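The Hox cluster genes encode homeodomain transcription factors that lie in 4 chromosomal clusters, and here they were read across 12 expression arrays of mouse neural cells as a record of positional identity. The members were all 38 genes named in the HoxA, HoxB, HoxC and HoxD clusters. A member counted as measured when at least 1 probe set carried its symbol and no other, and where a gene had several such probe sets the one with the highest mean over all 12 arrays was used. By this rule 33 of the 38 genes were measured, among 18193 genes in all. Hoxa6, Hoxb8, Hoxc11, Hoxc12 and Hoxd4 had no such probe set and are not analysed here. Of the measured members, 9 of 10 belonged to HoxA on chromosome 6, 9 of 10 to HoxB on chromosome 11, 7 of 9 to HoxC on chromosome 15, and 8 of 9 to HoxD on chromosome 2.

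Every array came from p53-/- cells of BL6 background whose source was the embryonic telencephalon at E14.5, so no group carried intact p53. There were 6 groups of 2 arrays each. NSCL61, OPCL61 and ASTL61 were lines made by electroporation of 3 kinds of culture, called NSC for neural stem cells, OPC for precursors of oligodendrocytes and AST for astrocytes. The electroporation brought in a plasmid for HRasL61, an activated form of the HRas GTPase, with EGFP, together with a neomycin resistance plasmid. The lines were selected in neomycin and sorted for green fluorescence. NSC grew as floating spheres without serum, OPC were immunopanned and grown with PDGFAA, bFGF and a little serum, and AST were grown in 10% FCS for several weeks. No parental culture was taken through electroporation, selection and sorting, so HRasL61 and those steps cannot be told apart. The labels do not state whether a line is 1 clone, nor that the 2 arrays of a group came from separate cultures, so the p-values measure the spread between these arrays, which may be technical.

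In the embryo, retinoic acid and Cdx factors switch Hox genes on in a nested order, from anterior genes (low paralog numbers) to posterior ones (high numbers), and Polycomb complexes hold the clusters silent elsewhere. The nested code tells a cell where it lies along the head-to-tail axis of the hindbrain, spinal cord and trunk mesoderm. The telencephalon lies in front of the Hox domain and is known for keeping these clusters off. Hox proteins bind DNA together with Pbx, Meis and Pknox partners.

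The values are log2 signals, and a level is comparable between arrays for 1 probe set but not between probe sets. As a background line the median of all values, 5.18, was used, and a member was taken as above it in a group when both arrays exceeded it. A stricter line, 6.56, was the 95th percentile of 35 measured genes of other organs that brain cells should not use. Of those 35 genes, 8 to 10 exceeded the lower line in a group, so a level between both lines is not set apart from background. The marker genes fitted some labels better than others. Cspg4 stands in both the OPC list and the pericyte and fibroblast list, so these lists are not independent. OPC arrays had 8 of 8 OPC markers above the lower line. The arrays labelled NSC had 2 of 8 neural stem cell markers above it and 8 of 12 pericyte and fibroblast markers, whose mean lay between 8.52 and 9.05 in NSC and between 4.36 and 4.48 in OPC. The AST arrays had 3 of 8 astrocyte markers and 6 of 12 pericyte and fibroblast markers above the line, with a mean of the second list between 6.51 and 6.88. OPC is therefore compared with NSC and with AST, and a difference between cultures can come from fewer cells of a type or from less RNA per cell, which bulk arrays cannot tell apart.

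RefSeq promoter sequence was held for 22 of the 38 member genes, 19 of them measured, as 300 bases from 250 before to 50 after the gene start on build GRCm38.p6. Shown here are the promoters of 4 members with a probe set that exceeded the stricter line in both arrays of OPC or OPCL61 and passed a comparison between 2 groups, each 5′ to 3′ on the gene's own strand. Capitals mark AGGTCA, the half-site known to be bound by retinoic acid receptors, searched on both strands. Hoxa5 lies at chr6:52204538-52204837 on the minus strand, Hoxa7 at chr6:52218524-52218823 on the minus strand, Hoxa9 at chr6:52227321-52227620 on the minus strand and Hoxd8 at chr2:74704365-74704664 on the plus strand.
Hoxa5: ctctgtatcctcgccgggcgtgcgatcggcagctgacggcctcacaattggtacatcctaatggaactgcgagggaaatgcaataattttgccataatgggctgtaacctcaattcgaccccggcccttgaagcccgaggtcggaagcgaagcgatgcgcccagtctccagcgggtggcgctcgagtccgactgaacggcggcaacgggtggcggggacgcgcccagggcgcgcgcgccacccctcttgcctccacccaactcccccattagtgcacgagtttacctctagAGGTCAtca
Hoxa7: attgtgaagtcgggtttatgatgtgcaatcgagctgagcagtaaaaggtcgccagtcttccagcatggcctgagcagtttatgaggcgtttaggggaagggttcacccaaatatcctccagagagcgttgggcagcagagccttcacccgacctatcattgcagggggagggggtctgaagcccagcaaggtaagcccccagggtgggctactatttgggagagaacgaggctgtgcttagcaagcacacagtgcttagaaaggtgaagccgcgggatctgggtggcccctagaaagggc
Hoxa9: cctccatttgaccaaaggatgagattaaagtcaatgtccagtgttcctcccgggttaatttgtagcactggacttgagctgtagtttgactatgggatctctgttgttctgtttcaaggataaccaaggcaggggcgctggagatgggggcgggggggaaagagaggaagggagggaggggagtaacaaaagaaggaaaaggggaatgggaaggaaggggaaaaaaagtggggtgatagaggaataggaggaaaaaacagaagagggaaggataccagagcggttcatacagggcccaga
Hoxd8: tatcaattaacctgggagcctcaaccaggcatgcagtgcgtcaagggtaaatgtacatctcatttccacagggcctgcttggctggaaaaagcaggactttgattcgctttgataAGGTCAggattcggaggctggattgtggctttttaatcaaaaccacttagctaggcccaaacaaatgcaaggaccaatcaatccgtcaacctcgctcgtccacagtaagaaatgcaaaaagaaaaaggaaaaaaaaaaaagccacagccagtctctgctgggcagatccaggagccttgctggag
The Hoxa5 and Hoxd8 windows hold 1 match each and the Hoxa7 and Hoxa9 windows hold none. Over the member genes with a promoter 7 of 22 have a match, and 16.3% of all 32851 promoters do. The Hoxa5 window has 29 CpG dinucleotides, against 9 in Hoxa7, 4 in Hoxa9, 6 in Hoxd8 and a median of 7 over all promoters. A match is a stretch of letters and says nothing of binding in these cells.

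Most of the family lay at background. Of the 33 measured members, 24 were above the lower line in no group, 6 were above it in all 6 groups and 3 in some groups. By group, 7 members were above it in NSCL61 and 7 in NSC, 7 in OPCL61 and 8 in OPC, and 7 in ASTL61 and 7 in AST. These counts rest on the choice of probe set. With the probe set of the largest range between group means they were 2 in NSCL61, 2 in NSC, 5 in OPC, 2 in ASTL61 and 2 in AST. In OPCL61, Hoxa5, Hoxa7, Hoxa9, Hoxc6 and Hoxc9 were above the line by that choice. With probe sets averaged per gene the counts were 3 in NSCL61 and 3 in NSC, 4 in OPCL61 and 5 in OPC, and 3 in ASTL61 and 3 in AST. Hoxa3, Hoxa5, Hoxa9 and Hoxb3 were above the line in all 6 groups on the probe set used alone. Over all genes the share above the line was between 61.4% and 62.8% in a group. With the stricter line the counts were 1 in NSCL61 and 1 in NSC, 3 in OPCL61 and 3 in OPC, and 0 in ASTL61 and 2 in AST, and 29 members passed it in no group. Over all genes 45.1% to 46.7% passed the stricter line. Members chosen by their highest probe set carry the probe set that reads brightest, which need not be the one that varies most between groups, so the 48 single-symbol probe sets of the 33 members were also followed singly.

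**Figure D1:**
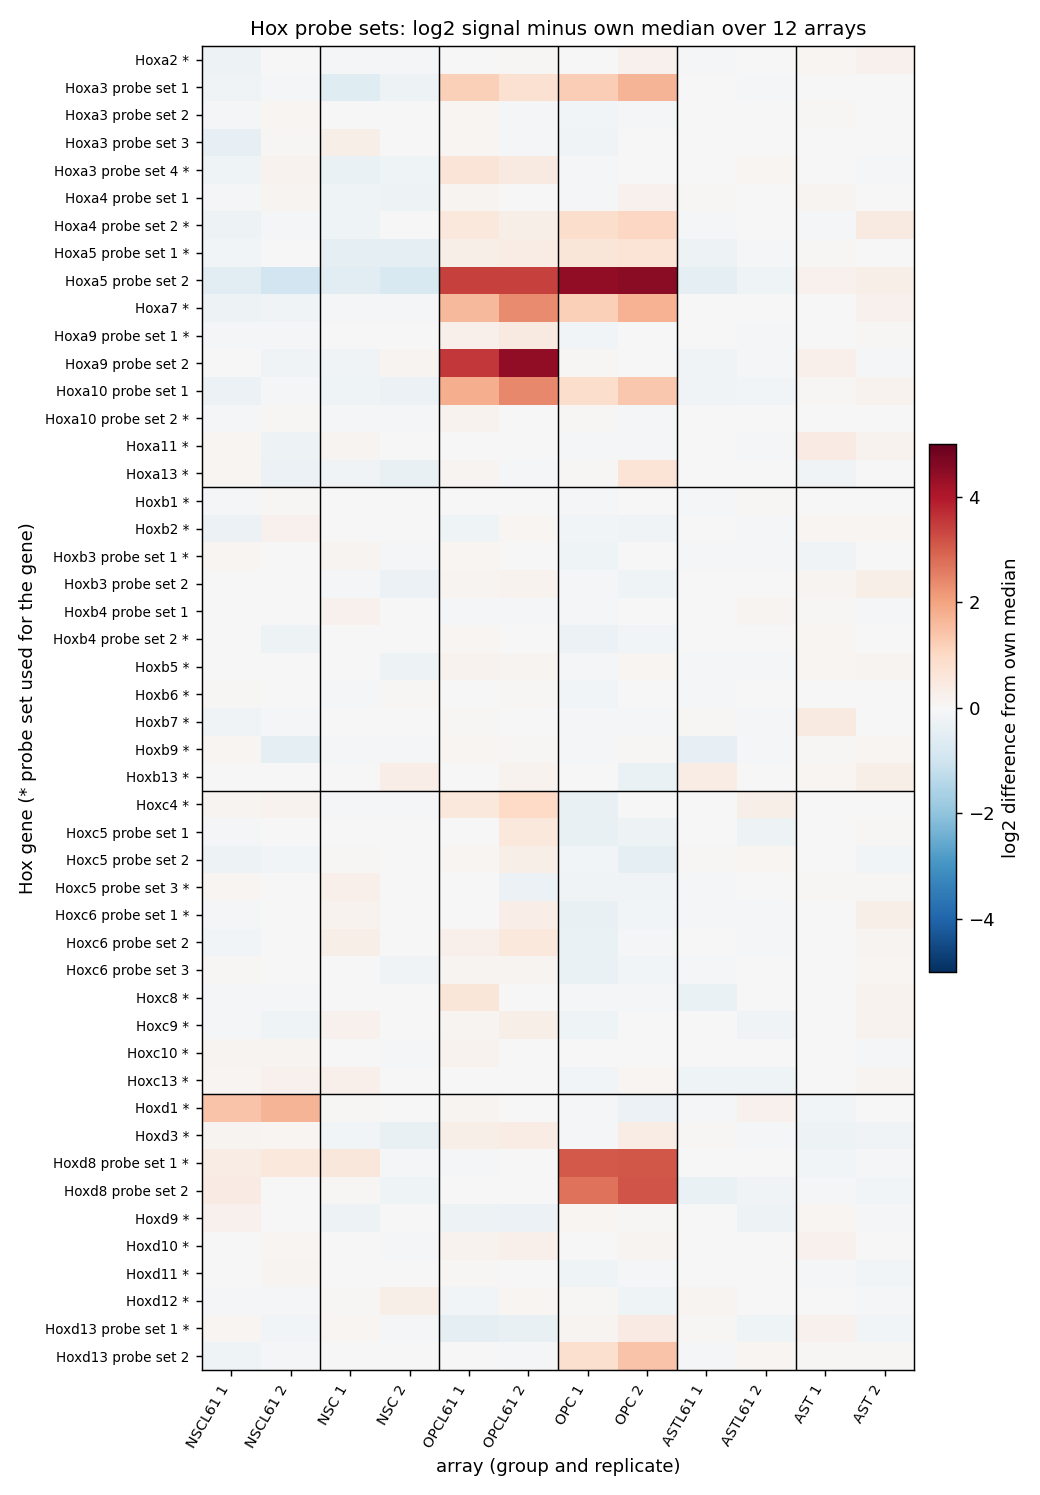
Heat map of the 48 probe sets of the 33 measured Hox genes (down the page, by cluster) on the 12 arrays (across). Colour gives the log2 signal minus the probe set's own median over the 12 arrays, so it does not show the background line. A star marks the probe set used for its gene. The OPC and OPCL61 arrays stand out in Hoxa5, Hoxa7 and, in OPC alone, Hoxd8. OPCL61 alone stands out in the second Hoxa9 probe set.

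Among the anterior and middle HoxA genes, Hoxa3, which patterns the pharyngeal arches, read between 5.60 and 6.61 over the 12 arrays with the probe set used. Hoxa5, known for lung and for the motor neurons that drive breathing, read between 6.31 and 7.46, and Hoxa7, a trunk gene, between 6.26 and 8.85. Both exceeded the lower line everywhere. Hoxa3 read 5.75 and 6.11 in NSCL61 and 5.60 and 5.76 in NSC, 6.61 and 6.39 in OPCL61 and 5.90 and 5.96 in OPC, and 5.98 and 6.03 in ASTL61 and 5.95 and 5.84 in AST. OPCL61 was the highest group and all 12 values lay near or between both lines. Hoxa9, a posterior gene known for blood stem cells and leukaemia, read between 5.94 and 6.53 with the probe set used. Its values were 6.01 and 5.98 in NSCL61 and 6.11 and 6.11 in NSC, 6.33 and 6.53 in OPCL61 and 5.94 and 6.13 in OPC, and 6.07 and 6.04 in ASTL61 and 6.07 and 6.15 in AST, with OPCL61 again the highest. The other HoxA members were below the lower line on all 12 arrays, namely Hoxa2, which patterns the hindbrain and the second arch (2.67 to 3.14), Hoxa4 (3.13 to 4.41), Hoxa10, known for the uterus (3.36 to 3.62), Hoxa11, a forelimb and kidney gene (3.44 to 4.12), and Hoxa13, a digit gene (3.95 to 5.03).

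No HoxB gene was set apart from background. Hoxb3, a hindbrain gene, read between 5.49 and 5.81 on the 12 arrays and so lay between both lines in every group. It read 5.77 and 5.71 in NSCL61 and 5.81 and 5.64 in NSC, 5.79 and 5.68 in OPCL61 and 5.49 and 5.70 in OPC, and 5.63 and 5.64 in ASTL61 and 5.50 and 5.72 in AST, and every group overlapped with another. Hoxb1, which marks a single hindbrain rhombomere, read between 2.90 and 3.07. The remaining HoxB members were Hoxb2 (4.33 to 4.87), Hoxb4 (4.67 to 5.05), Hoxb5 (3.05 to 3.48), Hoxb6 (3.12 to 3.30), Hoxb7 (3.46 to 4.08), Hoxb9 (3.42 to 3.96) and Hoxb13, a tail gene (3.95 to 4.65). No array of these 8 genes reached the line. HoxB was also the cluster without a call: 0 of its 9 genes passed in any of the 9 comparisons below by limma with Benjamini-Hochberg adjustment over all genes, and 3 of 81 tests had an unadjusted p under 0.05. A Hoxb3 probe set not used, 1456229_at, lay between 2.56 and 3.16 on all arrays and passed by small differences. These were 0.42 in AST minus NSC (limma adjusted p over probe sets = 0.0279) and -0.36 in OPC minus AST (adjusted p = 0.0301).

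In HoxC, Hoxc9, which sets the thoracic motor columns, read between 6.39 and 6.91 on the 12 arrays. It read 6.55 and 6.39 in NSCL61 and 6.83 and 6.63 in NSC, 6.75 and 6.91 in OPCL61 and 6.43 and 6.62 in OPC, and 6.63 and 6.44 in ASTL61 and 6.65 and 6.80 in AST. No comparison of Hoxc9 between 2 groups passed. Hoxc6, a gene of forelimb-level motor neurons, read between 4.93 and 5.65 and straddled the line. It read 5.25 and 5.30 in NSCL61 and 5.46 and 5.34 in NSC, 5.32 and 5.65 in OPCL61 and 4.93 and 5.15 in OPC, and 5.22 and 5.25 in ASTL61 and 5.30 and 5.59 in AST. OPC was the one group below the line. The others were below it or crossed it on 1 array: Hoxc4 (4.08 to 5.45), Hoxc5 (4.49 to 5.03), Hoxc8, a brachial spinal cord gene (2.48 to 3.44), Hoxc10, a lumbar gene (2.97 to 3.21), and Hoxc13, a hair gene (3.73 to 4.20). In HoxD, Hoxd8 read between 4.49 and 7.76 and Hoxd9 between 4.90 and 5.37. Hoxd8 read 5.00 and 5.15 in NSCL61 and 4.66 and 4.62 in ASTL61, and its other groups are given with their comparisons. Hoxd9 read 5.37 and 5.18 in NSCL61 and 4.90 and 5.17 in NSC, 4.90 and 4.90 in OPCL61 and 5.29 and 5.22 in OPC, and 5.21 and 4.91 in ASTL61 and 5.27 and 5.13 in AST. OPC alone had both Hoxd9 arrays above the line, by a small margin. Hoxd1, known in pain-sensing neurons, read between 2.69 and 4.65, and Hoxd3 between 3.85 and 4.58. The posterior HoxD genes, which build limbs and the lumbar cord, were low, with Hoxd10 between 2.84 and 3.13, Hoxd11 between 3.53 and 3.86, Hoxd12 between 3.58 and 4.08, and Hoxd13 between 4.52 and 5.39.

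The first question was how the cultures differed before HRasL61. OPC had higher signal than both NSC and AST in Hoxa4, Hoxa5, Hoxa7 and Hoxd8. Over the members, 5 of 33 passed in OPC minus NSC, 5 higher and 0 lower in OPC, where 38.2% of all genes passed, 19.8% higher and 18.4% lower. In OPC minus AST 5 passed, 4 higher and 1 lower in OPC, where 39% of all genes passed, 19.2% higher and 19.8% lower. Both comparisons share the OPC arrays. The median member difference was -0.05 in OPC minus NSC, where that of all genes was -0.06, and -0.04 in OPC minus AST, where that of all genes was -0.09.

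Hoxd8 read 7.69 and 7.76 in OPC, against 5.22 and 4.60 in NSC and 4.49 and 4.54 in AST. Both OPC arrays were far above every other array, and only OPC exceeded the lower line with both arrays. The difference was 2.82 ± 0.17 (log2 ± SE, n = 2 each) against NSC (limma adjusted p = 1.02e-06) and 3.21 ± 0.17 against AST (limma adjusted p = 4.95e-07). The second Hoxd8 probe set, 1433638_s_at, gave 6.75 and 7.18 in OPC, against 4.08 and 3.83 in NSC and 3.93 and 3.89 in AST. It too set OPC apart, by 3.01 against NSC and 3.05 against AST, the 2 sets of probes giving close to the same difference.

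Hoxa5 read 7.41 and 7.46 in OPC, against 6.31 and 6.33 in NSC and 6.83 and 6.79 in AST with the probe set used. The groups did not overlap, and the differences were 1.11 ± 0.10 against NSC (limma adjusted p = 1.41e-05) and 0.63 ± 0.10 against AST (limma adjusted p = 6.92e-04). That probe set is an x_at set, a suffix that marks probes which may match other transcripts. The other Hoxa5 probe set, 1448926_at, read 9.30 and 9.38 in OPC, against 4.35 and 4.10 in NSC and 5.09 and 5.15 in AST. Here OPC was far above the line and both other cultures were below it. The difference was 5.12 ± 0.16 against NSC (limma adjusted p over probe sets = 8.59e-09) and 4.22 ± 0.16 against AST (adjusted p = 3.71e-08), so both probe sets had one direction. NSC and AST lay below the background line on this set, so the size of the difference is limited by background and is not comparable with that of the probe set used. Hoxa5 being above the line in every group thus holds only for the probe set used.

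Hoxa7 has 1 probe set, which read 7.69 and 8.25 in OPC, against 6.40 and 6.44 in NSC and 6.47 and 6.72 in AST. OPC was above both cultures without overlap, by 1.55 ± 0.23 against NSC (limma adjusted p = 4.97e-04) and 1.37 ± 0.23 against AST (limma adjusted p = 0.00106). Hoxa4 was below the line everywhere and still separated, with 4.27 and 4.41 in OPC, against 3.16 and 3.41 in NSC and 3.34 and 3.82 in AST. Its difference was 1.06 ± 0.17 against NSC (limma adjusted p = 7.41e-04) and 0.76 ± 0.17 against AST (limma adjusted p = 0.00519). A second Hoxa4 set, 1420226_x_at, gave 0.28 against NSC (limma adjusted p over probe sets = 0.132) and -0.02 against AST (adjusted p = 0.921) and did not pass. With the probe sets used, these 4 genes kept their calls against both cultures when any single array was left out.

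Hoxa13 passed against NSC, with 4.41 and 5.03 in OPC, against 4.16 and 3.95 in NSC, a difference of 0.66 ± 0.20 (limma adjusted p = 0.0275) that was lost without replicate 2 of OPC (0.35, adjusted p = 0.209) or replicate 2 of NSC (0.56, adjusted p = 0.130). Against AST, with 4.15 and 4.33, the difference of 0.48 did not pass (limma adjusted p = 0.0910). Hoxa11 was lower in OPC than in AST, with 3.60 and 3.63 in OPC and 4.12 and 3.90 in AST, a difference of -0.40 ± 0.14 (limma adjusted p = 0.0427). That call was lost under 9 of the 12 omissions of a single array, at -0.29 (adjusted p = 0.227) without replicate 1 of AST, and kept without replicate 2 of AST or either replicate of NSCL61. Against NSC, with 3.85 and 3.73, the Hoxa11 difference of -0.17 did not pass (limma adjusted p = 0.361). Both genes stayed below the line in every group. Among probe sets not used, Hoxa3 set 1427433_s_at read 4.68 and 5.13 in OPC, against 2.83 and 3.20 in NSC and 3.43 and 3.44 in AST, and was higher in OPC by 1.89 ± 0.19 against NSC (limma adjusted p over probe sets = 3.24e-05) and by 1.47 against AST (adjusted p = 1.98e-04). Hoxa10 set 1431475_a_at read 3.75 and 4.24 in OPC, against 2.65 and 2.60 in NSC and 2.95 and 3.04 in AST, higher by 1.37 (adjusted p = 4.33e-04) and 1.00 (adjusted p = 0.00319). A Hoxd13 set, 1440626_at, read 5.18 and 5.82 in OPC, against 4.38 and 4.38 in NSC and 4.44 and 4.43 in AST, higher by 1.12 (adjusted p = 6.47e-04) and 1.06 (adjusted p = 9.27e-04), with 1 OPC array near the background line and 1 above it. Counted by probe set, 10 of 48 passed in OPC minus NSC, 10 higher and 0 lower, where 37.5% of all 34945 probe sets passed. In OPC minus AST 11 passed, 9 higher and 2 lower, where 37.3% did. The OPC marker genes moved with these differences, with 8 of 8 above the line in OPC (list mean 10.65 to 11.02), 4 of 8 in NSC (5.97 to 6.07) and 3 of 8 in AST (4.88 to 4.98). Other marker lists moved too. Of 12 pericyte and fibroblast markers, 0 were higher and 10 lower in OPC minus NSC, and 1 higher and 4 lower in OPC minus AST. Of 8 astrocyte markers, 5 were higher and 0 lower in OPC in either comparison. Neural stem cell markers, also 8, gave 4 higher and 1 lower in OPC minus NSC, and 3 higher and 2 lower in OPC minus AST. Above the line were 6 of these 8 in OPC, against 2 in NSC and 5 in AST. Among 6 neuron markers, 3 were higher and 0 lower in OPC in either comparison. The part of these lists in the Hox differences was not tested.

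**Figure D2:**
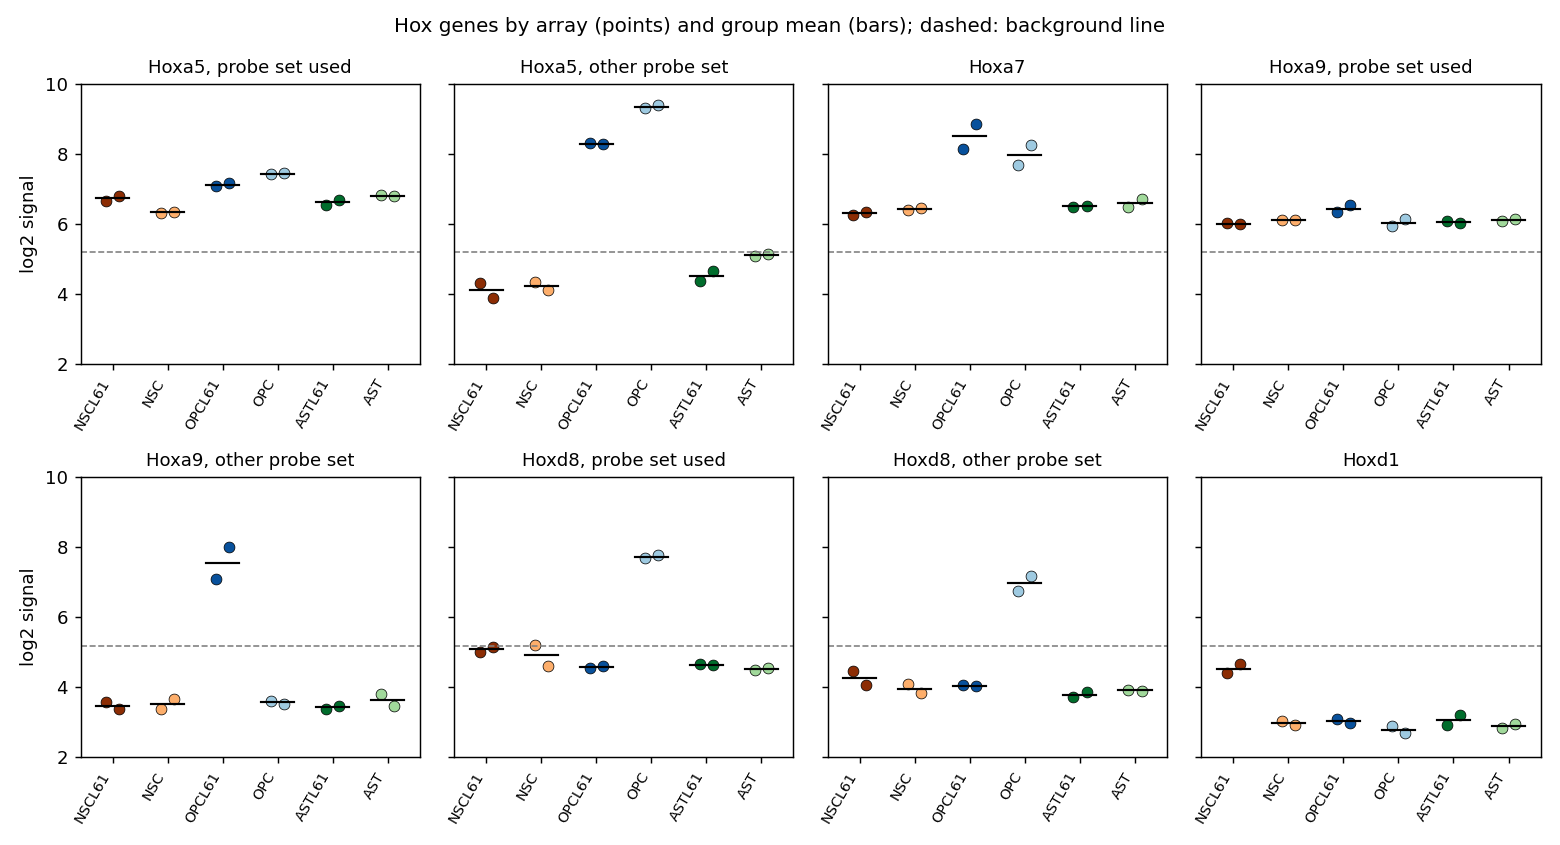
Log2 signal of each array (points) in the 6 groups (across) for Hoxa5, Hoxa7, Hoxa9, Hoxd8 and Hoxd1, with a second panel where the gene has another probe set; the dashed line is the background line of 5.18. OPC and OPCL61 lie highest in Hoxa5 and Hoxa7, OPCL61 alone is high in the second Hoxa9 probe set, OPC alone in Hoxd8, and NSCL61 alone is raised in Hoxd1.

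The next question was how each HRasL61 line differed from its parent culture. OPCL61 had the most member calls, and it had the most calls over all genes too. Of all genes 35.8% passed for OPCL61, against 27.1% for NSCL61 and 0.0165% for ASTL61. The share of members that passed for OPCL61, 24.2%, was below that of all genes. Against OPC, Hoxd8 fell to background, Hoxa5 was slightly lower, Hoxa9 was higher and the Hoxa7 difference did not pass the test. In OPCL61 minus OPC 8 of 33 members passed, 4 higher and 4 lower in the line, where 35.8% of all genes passed, 18.3% higher and 17.5% lower. For 3 of the 8, Hoxa4, Hoxc4 and Hoxd13, neither group was above the line. The median member difference was 0.13, and that of all genes 0.06. This comparison shares the OPC arrays with the comparisons of OPC with NSC and AST.

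Hoxd8 read 4.53 and 4.61 in OPCL61, against 7.69 and 7.76 in OPC. Both OPCL61 arrays were below the background line and did not overlap with OPC, and the difference was -3.15 ± 0.17 (limma adjusted p = 8.56e-07). The second probe set read 4.06 and 4.03 in OPCL61, against 6.75 and 7.18 in OPC, a difference of -2.92 (limma adjusted p over probe sets = 1.41e-06). In the other lines Hoxd8 gave differences from the parent of 0.17 for NSCL61 (95% interval -0.22 to 0.55) and 0.13 for ASTL61 (-0.26 to 0.51), neither past the test.

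Hoxa9 was higher in OPCL61 on both of its probe sets. The probe set used read 6.33 and 6.53 in OPCL61, against 5.94 and 6.13 in OPC, and was higher by 0.40 ± 0.11 (limma adjusted p = 0.0168), a call lost without replicate 1 of OPC (0.30, adjusted p = 0.116) or replicate 2 of OPCL61 (0.30, adjusted p = 0.113). Set 1455626_at read 7.09 and 7.99 in OPCL61, against 3.61 and 3.51 in OPC. Both OPCL61 arrays were above the line and the OPC arrays well below it, so the size of this difference too is limited by background. The difference was 3.98 ± 0.25 (limma adjusted p over probe sets = 2.00e-06), between 3.53 and 4.43 when any array was left out, and it passed each time. On this set the 10 arrays outside OPCL61 lay between 3.37 and 3.79.

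Hoxa10, next to Hoxa9 in the cluster, did not pass the test with the probe set used. Its set 1431475_a_at read 4.70 and 5.27 in OPCL61, against 3.75 and 4.24 in OPC, higher by 0.99 ± 0.20 (limma adjusted p over probe sets = 0.00352) with 1 OPCL61 array just above the line. Hoxa5 was lower in OPCL61, with 7.07 and 7.16 in OPCL61, against 7.41 and 7.46 in OPC by the probe set used, a difference of -0.32 ± 0.10 (limma adjusted p = 0.0306). The call was lost without any 1 of these 4 arrays (-0.36 to -0.27, adjusted p = 0.0550 to 0.130). Its set 1448926_at read 8.30 and 8.27 in OPCL61, against 9.30 and 9.38 in OPC, lower by 1.05 on the log2 scale (-1.05 ± 0.16, limma adjusted p over probe sets = 5.08e-04), and kept its call without any 1 array. Hoxa7 read 8.14 and 8.85 in OPCL61, against 7.69 and 8.25 in OPC, and the groups overlapped. Its difference of 0.53 ± 0.23 (95% interval 0.01 to 1.05, limma adjusted p = 0.109) did not pass.

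Of the remaining calls in OPCL61 minus OPC, Hoxc4 read 4.98 and 5.45 in OPCL61, against 4.08 and 4.45 in OPC, higher by 0.95 ± 0.18 (limma adjusted p = 0.00231), and kept its call without any 1 array. Hoxc6 read 5.32 and 5.65 in OPCL61, against 4.93 and 5.15 in OPC, higher by 0.45 ± 0.14 (limma adjusted p = 0.0367). OPCL61 was above the line and OPC below it, but the call was lost without replicate 1 of OPC (0.34, adjusted p = 0.204), replicate 2 of OPCL61 (0.28, adjusted p = 0.233) or either replicate of NSCL61 (0.45, adjusted p = 0.0560 each). Hoxa3 read 6.61 and 6.39 in OPCL61, against 5.90 and 5.96 in OPC, higher by 0.57 ± 0.14 (limma adjusted p = 0.00906) with the probe set used, and lost its call without replicate 1 of OPC (0.54, adjusted p = 0.0506) or of OPCL61 (0.46, adjusted p = 0.0610). Set 1427433_s_at of the same gene read 4.63 and 4.21 in OPCL61, against 4.68 and 5.13 in OPC, and its difference, in the opposite direction (-0.48, limma adjusted p over probe sets = 0.0774), did not pass. The other Hoxa3 sets gave 0.10 and 0.07 and did not pass either. Hoxa4 read 3.90 and 3.67 in OPCL61, against 4.27 and 4.41 in OPC, lower by 0.55 (-0.55 ± 0.17, limma adjusted p = 0.0280), a call lost without either replicate of OPC (-0.62 and -0.49) or replicate 2 of OPCL61 (-0.44). Its second set gave 0.01 and did not pass. Hoxd13, a digit gene, read 4.53 and 4.58 in OPCL61, against 5.11 and 5.39 in OPC, a difference of -0.70 ± 0.16 (limma adjusted p = 0.00601) lost without replicate 2 of OPC (-0.56, adjusted p = 0.0563). Its other set read 4.34 and 4.29 in OPCL61, against 5.18 and 5.82 in OPC, a difference of -1.18 (limma adjusted p over probe sets = 5.29e-04). Hoxc5, whose probe set used did not pass, was higher in OPCL61 by 0.57 (adjusted p = 0.0179) and 0.48 (adjusted p = 0.0205) on its other sets, all at background. Counted by probe set, 17 of 48 passed, 10 higher and 7 lower, where 35.3% of all probe sets passed. The OPC markers above the line numbered 6 of 8 in OPCL61 (list mean 6.38 to 6.79), against 8 of 8 in OPC, and 7 of the 8 fell in the line. Their part in the Hox differences was not tested.

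Set against both other lines, OPCL61 had higher signal in Hoxa3, Hoxa5, Hoxa7, Hoxa9 and Hoxc4. In OPCL61 minus NSCL61 7 of 33 members passed, 6 higher and 1 lower in OPCL61, where 18.8% of all genes passed, 9.05% higher and 9.78% lower. In OPCL61 minus ASTL61 5 passed, 5 higher and 0 lower in OPCL61, where 25.6% of all genes did, 13.3% higher and 12.3% lower. Marker genes moved with both comparisons, and their part in the Hox differences was not tested. Against NSCL61, 3 of 8 OPC markers were higher and 0 lower in OPCL61 (list mean 6.38 to 6.79 in OPCL61 and 4.98 to 5.00 in NSCL61) and 1 of 12 pericyte and fibroblast markers was lower. Against ASTL61, 3 of 8 OPC markers were higher and 1 lower (5.05 to 5.13 in ASTL61), and 6 of 12 pericyte and fibroblast markers were lower (list mean 4.73 to 4.98 in OPCL61 and 7.23 to 7.70 in ASTL61). Hoxa7 read 8.14 and 8.85 in OPCL61, against 6.26 and 6.35 in NSCL61 and 6.49 and 6.52 in ASTL61, with no overlap. It was higher by 2.19 ± 0.23 against NSCL61 (limma adjusted p = 1.87e-04) and 1.99 ± 0.23 against ASTL61 (limma adjusted p = 2.35e-04). Hoxa5 set 1448926_at read 8.30 and 8.27 in OPCL61, against 4.30 and 3.89 in NSCL61 and 4.37 and 4.64 in ASTL61, higher by 4.19 (limma adjusted p over probe sets = 1.57e-07) and 3.78 (adjusted p = 2.30e-07).

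Hoxa9 set 1455626_at was higher in OPCL61 by 4.07 against NSCL61 (limma adjusted p over probe sets = 5.26e-06) and by 4.12 against ASTL61 (adjusted p = 3.42e-06). Hoxa10 set 1431475_a_at read 2.57 and 2.81 in NSCL61 and 2.69 and 2.74 in ASTL61, and OPCL61 was above them by 2.30 (adjusted p = 6.64e-05) and 2.27 (adjusted p = 4.40e-05). The smaller calls against both lines were Hoxc4 (0.60 and 0.62), Hoxa3 (0.57 and 0.49), Hoxa9 with the probe set used (0.43 and 0.38) and Hoxa5 with the probe set used (0.39 and 0.51), and Hoxa4 passed against NSCL61 alone (0.56). Hoxa3 set 1427433_s_at, not used, was higher in OPCL61 by 1.11 against NSCL61 (limma adjusted p over probe sets = 0.00339). Against ASTL61 it was higher by 1.00 (adjusted p = 0.00407). Both calls were kept without any single array, and all these values lay below the background line. Hoxa3 sets 1429398_at and 1431392_at did not pass. They gave -0.01 and 0.18 against NSCL61 and were within 0.01 of no difference against ASTL61. The second Hoxa4 set gave 0.05 against NSCL61 and did not pass. With the probe sets used, Hoxa7 and Hoxd1 kept their calls against NSCL61 without any single array, and Hoxa5 and Hoxa7 did against ASTL61. The other calls against NSCL61 were each lost without replicate 1 of NSCL61 (Hoxa3 0.39, Hoxa4 0.47, Hoxa5 0.33, Hoxa9 0.45, Hoxc4 0.59) and without between 1 and 7 further arrays. The other calls against ASTL61 were each lost without replicate 1 of ASTL61 (Hoxa3 0.46, Hoxa9 0.39, Hoxc4 0.45) and without 1 OPCL61 array, and Hoxa3 and Hoxa9 also without replicate 2 of ASTL61 (0.52 and 0.36). Hoxd8, which was high in OPC, gave -0.50 in OPCL61 minus NSCL61 (95% interval -0.89 to -0.12, limma adjusted p = 0.0723) and -0.07 in OPCL61 minus ASTL61 (-0.45 to 0.32).

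**Figure D3:**
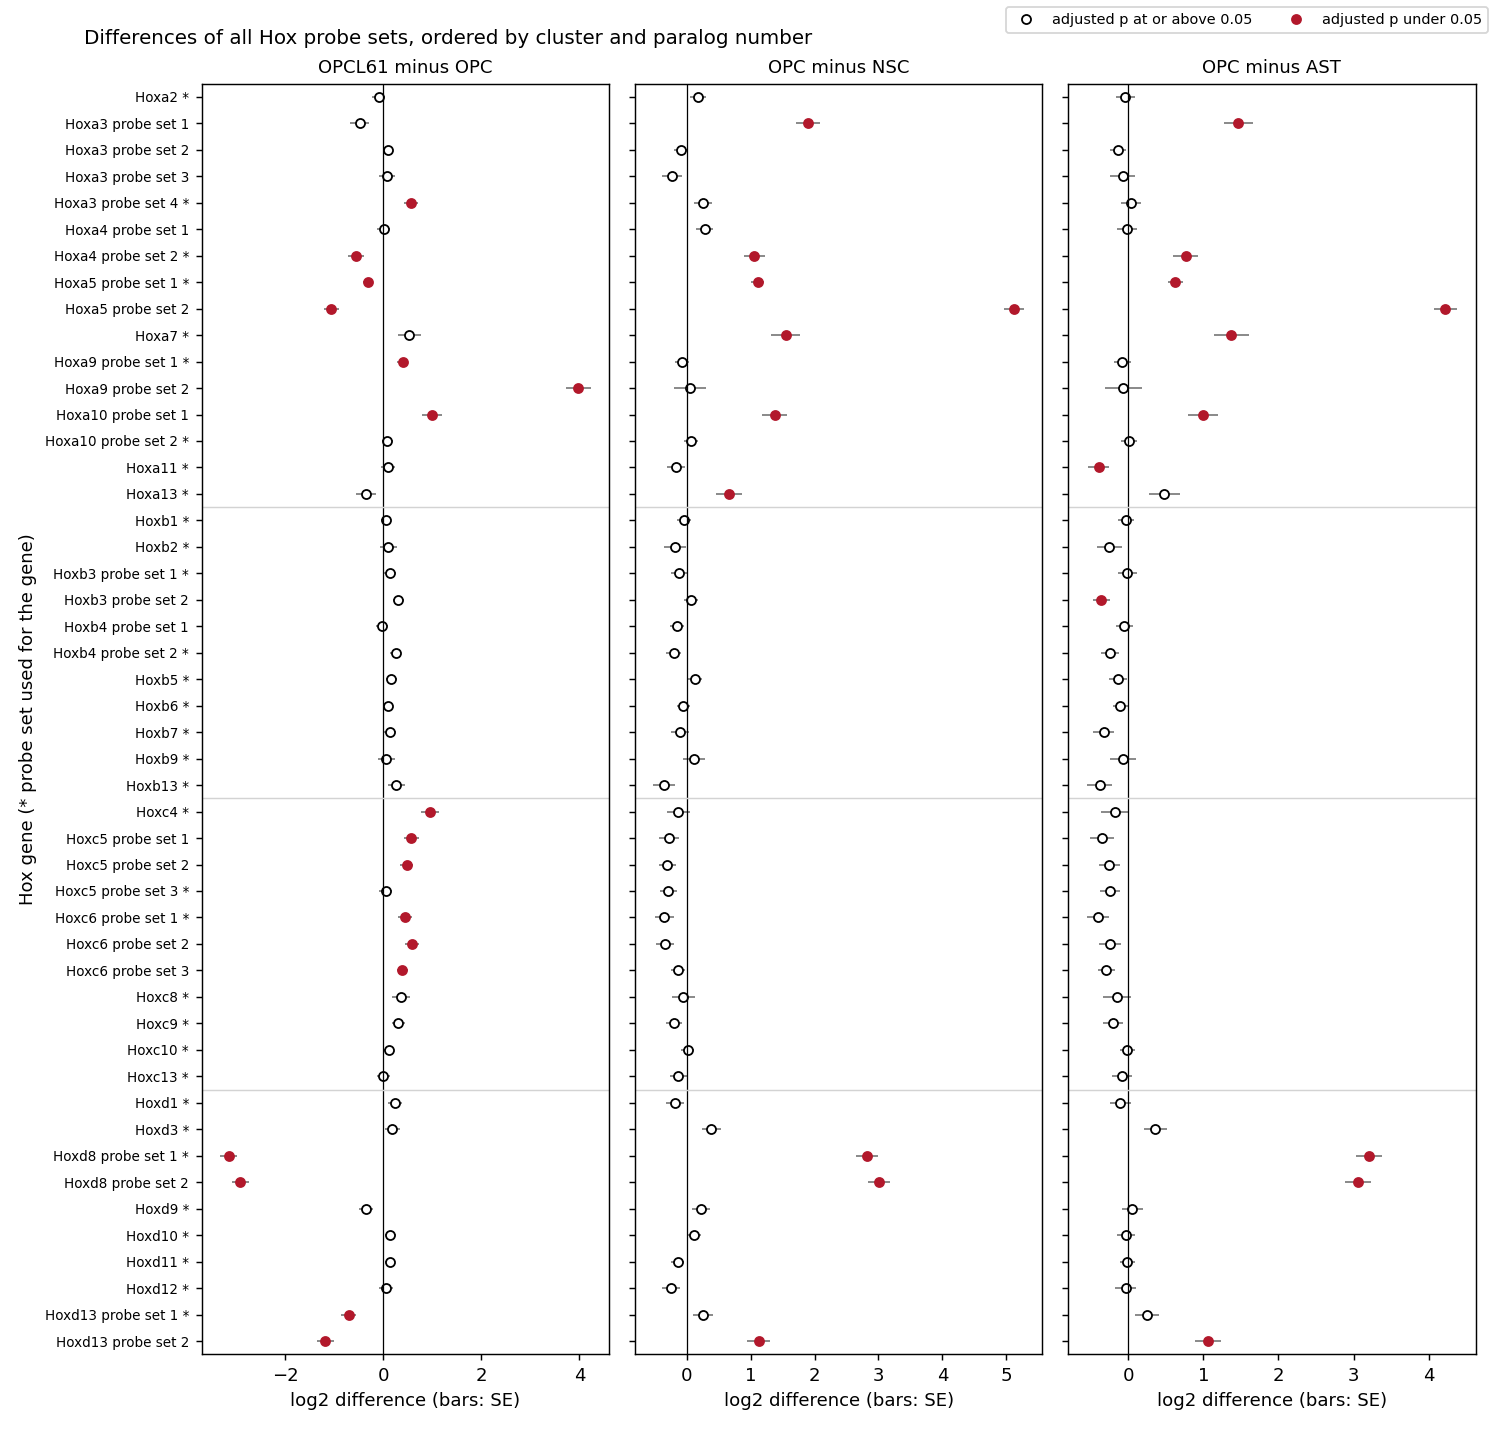
Log2 difference with its SE for each of the 48 Hox probe sets in OPCL61 minus OPC, OPC minus NSC and OPC minus AST, which share the OPC arrays. Hoxd8 lies near -3 in OPCL61 minus OPC and near 3 against both cultures, and the second Hoxa9 probe set lies at 3.98 in OPCL61 minus OPC.

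NSCL61 differed from NSC in 2 members. Hoxd1 was higher in the line and so, with the probe set used, was Hoxa5. In NSCL61 minus NSC 2 of 33 members passed, 2 higher and 0 lower, where 27.1% of all genes passed, 14.9% higher and 12.2% lower, and the median member difference was -0.02, with that of all genes at 0.02. Hoxd1 read 4.39 and 4.65 in NSCL61, against 3.03 and 2.93 in NSC. The line was above every other array of the series without overlap, yet below the background line. The difference was 1.54 ± 0.14 (limma adjusted p = 3.08e-05) and passed without any single array. Against the other lines Hoxd1 was lower by 1.49 in OPCL61 (-1.49 ± 0.14, limma adjusted p = 8.04e-05) and by 1.46 in ASTL61 (-1.46 ± 0.14, limma adjusted p = 6.76e-05). The second of these was the only call in ASTL61 minus NSCL61, where 1 of 33 members passed, and 23.1% of all genes, 11.1% higher and 12% lower.

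Hoxa5 with the probe set used read 6.66 and 6.79 in NSCL61, against 6.31 and 6.33 in NSC, higher by 0.40 ± 0.10 (limma adjusted p = 0.0138). The call was lost without either replicate of NSC (0.39, adjusted p = 0.0584, and 0.41, adjusted p = 0.0524) and without replicate 2 of NSCL61 (0.34, adjusted p = 0.107). Its set 1448926_at read 4.30 and 3.89 in NSCL61, against 4.35 and 4.10 in NSC, overlapping, with a difference of -0.12 that did not pass. Pericyte and fibroblast markers moved with this comparison, with 4 of 12 above the line in NSCL61 (list mean 4.99 to 5.07), against 8 of 12 in NSC (8.52 to 9.05), and 9 of 12 fell in the line. Neural stem cell markers moved too, with 7 of 8 above the line in NSCL61 (list mean 7.49 to 7.62), against 2 of 8 in NSC (5.35 to 5.50), and 5 of 8 rose in the line. The part of both lists in the Hoxd1 and Hoxa5 differences was not tested.

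ASTL61 and AST gave no member call: 0 of 33 members passed in ASTL61 minus AST by limma, 2 had an unadjusted p under 0.05, and 0.0165% of all genes passed, which is 3 genes, all higher (0% lower). The largest member difference was Hoxa11 at -0.36 (95% interval -0.67 to -0.06, limma adjusted p = 0.646). The Hoxa5 set 1448926_at gave -0.62 (limma adjusted p over probe sets = 0.406), with 4.37 and 4.64 in ASTL61 and 5.09 and 5.15 in AST. In AST minus NSC 1 of 33 members passed, where 21.3% of all genes passed, 10.6% higher and 10.7% lower. This was Hoxa5, with 6.83 and 6.79 in AST and 6.31 and 6.33 in NSC, higher by 0.48 ± 0.10 (limma adjusted p = 0.00746). Its other set was higher too, by 0.90 (limma adjusted p over probe sets = 0.00336), with 5.09 and 5.15 in AST and 4.35 and 4.10 in NSC, all below the line.

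The difference between lines in their change from the parent was tested as an interaction. The change in NSCL61 minus that in OPCL61 passed for 6 of 33 members, where 27.4% of all genes passed. The change in ASTL61 minus that in OPCL61 passed for 3, where 25.2% passed, and the change in NSCL61 minus that in ASTL61 passed for 2, where 17.8% passed. With the probe sets used, Hoxd8 had the largest, at 3.32 (limma adjusted p = 9.64e-06) for NSCL61 over OPCL61 and 3.28 (limma adjusted p = 1.71e-05) for ASTL61 over OPCL61, the fall being in OPCL61. Hoxd1 gave 1.30 (limma adjusted p = 8.28e-04) for NSCL61 over OPCL61 and 1.38 (limma adjusted p = 0.00103) for NSCL61 over ASTL61. Hoxa9 set 1455626_at gave -4.03 (limma adjusted p over probe sets = 2.91e-05) for NSCL61 over OPCL61 and -4.18 (adjusted p = 3.58e-05) for ASTL61 over OPCL61. Other sets not used passed where the set used did not, all in comparisons with OPCL61. For NSCL61 over OPCL61 these were Hoxa10 set 1431475_a_at (-0.93, adjusted p = 0.0388), Hoxd13 set 1440626_at (1.01, adjusted p = 0.0137), Hoxc6 set 1427362_x_at (-0.78, adjusted p = 0.0189) and Hoxc5 set 1450832_at (-0.67, adjusted p = 0.0282). For ASTL61 over OPCL61 they were the same Hoxa10 set (-1.28, adjusted p = 0.00972), the same Hoxd13 set (1.14, adjusted p = 0.00855), Hoxc5 set 1439885_at (-0.72, adjusted p = 0.0413) and Hoxb3 set 1456229_at (-0.52, adjusted p = 0.0413). Of these, the Hoxa10 and Hoxd13 calls for ASTL61 over OPCL61 were kept without any single array, Hoxd13 for NSCL61 over OPCL61 was lost without replicate 2 of NSCL61 (adjusted p = 0.0545), and each of the others was lost without any of 4 to 10 arrays. The Hoxa5 set 1448926_at gave 0.49 for NSCL61 over ASTL61 and did not pass (adjusted p = 0.176), where the probe set used gave 0.60 (limma adjusted p = 0.0165).

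The partners that bind DNA with Hox proteins were measured for 8 genes. In OPCL61 minus OPC 1 of 8 was higher and 3 were lower, where 18.3% of all genes were higher and 17.5% lower. Pbx3 read 10.49 and 11.15 in OPCL61, against 8.02 and 7.45 in OPC, higher by 3.09 ± 0.26 (limma adjusted p = 1.61e-05). Meis1 read 5.80 and 5.17 in OPCL61, against 8.30 and 7.71 in OPC, a difference of -2.52 ± 0.41 (limma adjusted p = 9.74e-04). In neither gene did the groups overlap. Meis1 was higher in OPC than in NSC by 2.05 (limma adjusted p = 0.00297) and than in AST by 2.32 (limma adjusted p = 0.00139). In NSCL61 minus NSC 1 of 8 partners was higher (Pbx3, 1.32) and 2 were lower, where 14.9% of all genes were higher and 12.2% lower. The list median was -0.23 in OPCL61 minus OPC, against 0.06 over all genes.

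Of 16 measured genes that act upstream of Hox genes, by retinoic acid or as Cdx and hindbrain regulators, 6 were higher and 1 lower in OPCL61 minus OPC. Aldh1a1, an enzyme that makes retinoic acid, read 7.18 and 7.96 in OPC, and the highest array outside OPC read 3.50. Aldh1a1 was the 1 lower gene in OPCL61 minus OPC (-4.33 ± 0.22, limma adjusted p = 5.26e-07), and it was higher in OPC than in NSC by 4.24 (limma adjusted p = 3.18e-07) and than in AST by 4.29 (limma adjusted p = 3.40e-07). Of the higher genes, Crabp1, which binds retinoic acid in the cytoplasm, read 11.46 and 12.30 in OPCL61, against 4.40 and 4.38 in OPC, higher by 7.49 ± 0.99 (limma adjusted p = 2.66e-04). Crabp1 was not high in OPCL61 alone, with 9.18 and 10.03 in NSCL61 and, far apart, 7.89 and 11.66 in NSC. Rarg, a retinoic acid receptor, read 8.13 and 7.90 in OPCL61, against 6.88 and 6.97 in OPC, higher by 1.09 ± 0.13 (limma adjusted p = 1.29e-04). In NSCL61 minus NSC the related binding protein Crabp2 read 4.55 and 4.75 in NSCL61, against 9.30 and 9.52 in NSC, a difference of -4.76 ± 0.37 (limma adjusted p = 1.32e-05), and Rarg gave -1.10 (limma adjusted p = 1.82e-04). In the comparisons of these genes given with an adjusted p, no groups overlapped. Cdx2, which drives posterior Hox genes in the tail bud, read 7.97 and 8.54 in NSCL61, against 4.71 and 4.49 in NSC, higher by 3.65 ± 0.34 (limma adjusted p = 4.24e-05). Both NSCL61 arrays were above every other array. In OPCL61, Cdx2 read 6.39 and 5.12, against 4.63 and 4.65 in OPC, higher by 1.12 ± 0.34 (limma adjusted p = 0.0285), with 1 OPCL61 array below the background line. Of the 16 genes 2 were higher and 5 lower in NSCL61 minus NSC, 1 higher and 6 lower in OPC minus NSC, and 1 higher and 3 lower in OPC minus AST. Over all genes the shares higher and lower were 18.3% and 17.5% in OPCL61 minus OPC and 14.9% and 12.2% in NSCL61 minus NSC. They were 19.8% and 18.4% in OPC minus NSC, and 19.2% and 19.8% in OPC minus AST.

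Among 19 measured genes of the Polycomb and trithorax complexes, which keep Hox clusters off or on, 3 were higher and 4 lower in OPCL61 minus OPC. Jarid2, a partner of Polycomb complex PRC2, read 7.41 and 7.27 in OPCL61, against 8.86 and 8.84 in OPC, a difference of -1.51 ± 0.11 (limma adjusted p = 6.42e-06). It was higher in OPC than in NSC by 2.06 (limma adjusted p = 4.67e-07) and than in AST by 2.06 (limma adjusted p = 5.49e-07). OPC minus NSC gave 7 of 19 higher and 0 lower, and OPC minus AST 5 higher and 1 lower. NSCL61 minus NSC gave 5 higher, among them the methyltransferase Ezh2 (1.36 ± 0.23, limma adjusted p = 0.00156), and 0 lower. Over all genes the shares higher and lower were 18.3% and 17.5% in OPCL61 minus OPC and 14.9% and 12.2% in NSCL61 minus NSC. They were 19.8% and 18.4% in OPC minus NSC, and 19.2% and 19.8% in OPC minus AST.

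Of 13 measured genes that flank the clusters, 2 were higher and 5 lower in OPCL61 minus OPC. Skap2, which lies beside HoxA, read 9.91 and 9.42 in OPCL61, against 11.06 and 10.90 in OPC, a difference of -1.32 ± 0.15 (limma adjusted p = 1.17e-04). In OPC it stood above NSC, with 8.67 and 8.53, by 2.38 (limma adjusted p = 1.52e-06), and above AST, with 8.72 and 8.81, by 2.21 (limma adjusted p = 2.89e-06). Beside HoxD, Mtx2 was higher in OPCL61 than in OPC by 1.07 (limma adjusted p = 9.57e-05) and Lnpk by 1.63 (limma adjusted p = 1.11e-04), both outside the HoxD genes themselves. OPC minus NSC gave 6 of 13 higher and 1 lower, and OPC minus AST 5 higher and 2 lower. Over all genes the shares higher and lower were 18.3% and 17.5% in OPCL61 minus OPC. They were 19.8% and 18.4% in OPC minus NSC, and 19.2% and 19.8% in OPC minus AST.

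Other positional regulators moved in both directions. Over all genes the shares higher and lower were 18.3% and 17.5% in OPCL61 minus OPC. They were 19.8% and 18.4% in OPC minus NSC, and 19.2% and 19.8% in OPC minus AST. Of 8 measured midbrain and hindbrain factors, OPC minus NSC gave 1 higher and 3 lower and OPC minus AST 3 higher and 0 lower. En2, which marks the midbrain and hindbrain border, read 5.93 and 6.11 in OPC, against 3.76 and 3.56 in NSC and 4.14 and 3.86 in AST. It was higher in OPC by 2.36 (limma adjusted p = 1.48e-04) and 2.02 (limma adjusted p = 4.24e-04), without overlap. En2 was the 1 higher gene in OPC minus NSC, and the lower ones there included Egr2 and Irx3. Egr2 read 5.29 and 5.93 in OPC, against 9.75 and 8.87 in NSC. The 3 higher genes in OPC minus AST were Irx3, En2 and Irx2. Of 10 forebrain factors, OPC minus AST gave 1 higher and 4 lower, among them Otx1 (-1.98, limma adjusted p = 3.25e-05) and Emx2 (-1.64, limma adjusted p = 0.00119), and OPC minus NSC gave 2 higher and 3 lower. Of 20 mesoderm factors, OPC minus NSC gave 0 higher and 13 lower and OPC minus AST 0 higher and 10 lower, while OPCL61 minus OPC gave 7 higher, among them Twist2 (4.67, limma adjusted p = 3.99e-06) and Prrx1 (4.56, limma adjusted p = 1.41e-07), and 2 lower. In ASTL61 minus AST, 0 genes of any of these lists passed by limma, and at an unadjusted p under 0.05 there were 0 partners, 3 upstream genes, 1 Polycomb and trithorax gene, 0 flanking genes, 1 forebrain factor, 2 midbrain and hindbrain factors and 2 mesoderm factors.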

How the data were processed

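The authors deposited 1 normalized table of log2 signal per probe set for all 12 arrays. The values run from 2.14 to 14.3 with array medians of 5.16 to 5.21, and the normalization method is not given in the sources used here. Per the labels' protocols, 5 µg of RNA was amplified in 1 cycle of in vitro transcription with biotin. The number of arrays, not a read depth, limits precision. Of 45101 probe sets, 34945 name 1 gene, 932 name several and 9211 name none in GEO's platform annotation. The members and gene lists were chosen with earlier results of these data known.

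Each gene was represented by its single-symbol probe set with the highest mean (18193 genes, with no filter on low values). Means of 6 groups were fitted to all 12 arrays in limma 3.58.1 (R 4.3.3), with Benjamini-Hochberg adjustment over all genes and a threshold of 0.05, and again over all 34945 single-symbol probe sets. The threshold was applied to 9 contrasts and 3 interactions. No replicate block was used: deviations of arrays with the same number correlated between -0.16 and 0.08 across groups, so the numbers only name arrays. Named were all measured members, their other probe sets where the call differed, and from each other list up to 3 genes with the smallest p among those called in a comparison. Outside this rule, and after their values were seen, the second Hoxd8, Hoxa5 and Hoxa9 probe sets were described throughout, and Cdx2 and Skap2 in OPCL61 minus OPC. The fit was tested on simulated data, with 50 genes changed at each size in OPCL61. It called 8% of them at a log2 change of 0.5, 78% at 1, 98% at 2 and 96% at 3. A small difference that did not pass is therefore not shown to be absent. Far fewer genes changed there than passed in the data, so these shares need not hold for the data. The alternatives tried were quantile normalization, median centring, a filter at the median, the mean of probe sets, a trended robust prior, a fit on the compared arrays, a replicate block, a fold minimum, and leaving out each array. The Hras and Trp53 transcripts were not analysed here. Promoters were taken from RefSeq (GRCm38.p6). Python 3.11.15, pandas 2.3.3 and matplotlib 3.10.9 were used.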

Additional observations from a re-analysis of the deposited data

Results flagged for a closer look

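These members changed differently between lines and their parents by the interaction test of limma, on the log2 scale, and groups of 2 arrays allow no test for a single array that stands apart. For the change in NSCL61 minus the change in OPCL61, Hoxa5 gave 0.72 (adjusted p = 0.00397), Hoxa9 -0.51 (adjusted p = 0.0331), Hoxc9 -0.56 (adjusted p = 0.0491), Hoxd1 1.30 (adjusted p = 8.28e-04), Hoxd8 3.32 (adjusted p = 9.64e-06) and Hoxd9 0.60 (adjusted p = 0.0457). For the change in ASTL61 minus the change in OPCL61, Hoxc4 gave -0.80 (adjusted p = 0.0446), Hoxc6 -0.65 (adjusted p = 0.0423) and Hoxd8 3.28 (adjusted p = 1.71e-05). For the change in NSCL61 minus the change in ASTL61, Hoxa5 gave 0.60 (adjusted p = 0.0165) and Hoxd1 1.38 (adjusted p = 0.00103). Without any single array, Hoxa5, Hoxd1 and Hoxd8 kept the call in the comparison of NSCL61 with OPCL61, Hoxd8 in that of ASTL61 with OPCL61, and Hoxd1 in that of NSCL61 with ASTL61. Hoxc4 and Hoxd1 were above the background line with both arrays in 0 of the 6 groups, and Hoxd1 was below it on all 12 arrays. On its other probe set Hoxa5 gave 0.49 for NSCL61 against ASTL61 and did not pass (adjusted p over probe sets = 0.176).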

How the results depend on the processing

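Counts below are of the 33 members called. With quantile normalization the only count to move by over 1.5 times was that of ASTL61 against OPCL61 in their changes, at 5. With a filter at the median, which 11 members and 12787 genes passed, the count was 1 in NSCL61 minus NSC, 3 in OPC minus NSC, 0 in ASTL61 minus NSCL61 and 1 for NSCL61 against ASTL61 in their changes, fewer genes being tested. With probe sets averaged per gene it was 1 in NSCL61 minus NSC, 9 in OPC minus NSC, 8 in OPC minus AST, 2 in ASTL61 minus NSCL61, 10 for the changes in NSCL61 against OPCL61 and 7 for ASTL61 against OPCL61. With a fit on the compared arrays alone it was 5 in OPCL61 minus OPC, 3 in OPCL61 minus NSCL61, 2 in ASTL61 minus NSCL61, 1 in OPCL61 minus ASTL61 and 1 for ASTL61 against OPCL61, fewer arrays giving the spread. With a minimum difference of 1 on the log2 scale it was 1 in NSCL61 minus NSC, 1 in OPCL61 minus OPC, 0 in AST minus NSC, 2 in OPC minus AST, 2 in OPCL61 minus NSCL61, 1 in OPCL61 minus ASTL61, and 2, 1 and 1 for the interactions.

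With the probe set of the largest range between group means, an alternative chosen after seeing the data, the count was 1 in NSCL61 minus NSC, 8 in OPC minus NSC, 2 in AST minus NSC, 9 in OPC minus AST, 8 for ASTL61 against OPCL61 and 1 for NSCL61 against ASTL61 in their changes. By that probe set members above background numbered 2 in NSCL61 and 2 in NSC, 5 in OPC, and 2 in ASTL61 and 2 in AST. In OPCL61 they were Hoxa5, Hoxa7, Hoxa9, Hoxc6 and Hoxc9. This choice of probe set reversed Hoxa5 in NSCL61 minus NSC (-0.12, limma adjusted p = 0.657) and Hoxa3 in OPCL61 minus OPC (-0.48, limma adjusted p = 0.0756), and the cause was not tested. Members above background numbered 1 in NSCL61, 1 in NSC, 3 in OPCL61, 3 in OPC, 0 in ASTL61 and 2 in AST with the stricter line, and 3, 3, 4, 5, 3 and 3 with the mean of probe sets. For single members under these settings, 329 results kept direction and side of the threshold, 63 lost the call and 2 reversed.

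Leaving out each array, the count ran from 1 to 2 in NSCL61 minus NSC, 4 to 8 in OPCL61 minus OPC, 0 to 0 in ASTL61 minus AST, 4 to 6 in OPC minus NSC, 1 to 2 in AST minus NSC, 4 to 6 in OPC minus AST, 2 to 7 in OPCL61 minus NSCL61, 1 to 2 in ASTL61 minus NSCL61, 2 to 6 in OPCL61 minus ASTL61, and 3 to 7, 1 to 5 and 1 to 2 for the interactions. With a replicate block, the calls of Hoxc9 (-0.56, adjusted p = 0.0653) and Hoxd9 (0.60, adjusted p = 0.0522) for the changes in NSCL61 against OPCL61 were lost and no other call changed. Pairing the arrays of ASTL61 and NSCL61 the crossed way gave 4553 genes and 2 members, against 3554 genes and 1 member by the labels' numbers. Most members lie at background, where signal limits what a difference can show.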

Other observations

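Antisense transcripts of the clusters, which are no members and were chosen after their values were seen, had their own probe sets. Hoxb5os read 5.52 and 5.62 in OPCL61, against 6.17 and 6.34 in OPC, a difference of -0.69 (limma adjusted p over probe sets = 0.00183), and was higher in OPC than in NSC by 0.50 and than in AST by 0.90. HoxB genes themselves gave no call with the probe sets used, while Hoxb3 set 1456229_at, not used, passed in OPC minus AST (-0.36). Hoxd3os1 set 1460056_at read 4.38 and 4.72 in OPCL61, against 3.84 and 4.09 in OPC, higher by 0.59 (limma adjusted p over probe sets = 0.00936), with the array values of every other group at or below 3.20 and all below the background line. Its other set, 1430263_at, gave 0.25 in OPCL61 minus OPC and did not pass (adjusted p = 0.131).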
